A study of Mus musculus with 39 samples.

Results

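The cytochrome P450 family 1 of the mouse was followed in lung through every array probe whose annotated gene symbol is Cyp1a1, Cyp1b1 or Cyp1a2. There was 1 probe for each of these 3 genes among 20868 gene probes, namely A_51_P279693 for Cyp1a1, A_51_P255456 for Cyp1b1 and A_51_P450140 for Cyp1a2. Each array compared the RNA of 1 mouse lung, labelled with the red dye Cy5, with a universal mouse reference RNA bought from Stratagene and labelled with the green dye Cy3. A value below is the log2 ratio of lung over reference, unless it is called a signal. A signal is a spot's median brightness minus its local background, in scanner units.

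CYP1 enzymes are membrane-bound, heme-containing monooxygenases that oxidise polycyclic aromatic hydrocarbons and aromatic amines, both of which are constituents of tobacco smoke. Their genes are classical targets of the aryl hydrocarbon receptor (AhR), a cytosolic receptor that on binding such compounds enters the nucleus, pairs with Arnt and binds xenobiotic response elements (XRE) in DNA. Cyp1a1 is known as inducible in lung epithelium and endothelium, Cyp1b1 as expressed in many tissues outside the liver, and Cyp1a2 as mainly a liver enzyme.

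The animals were male C57BL/6 × CBA F1 hybrid mice labelled 8 to 10 weeks old. Smoke groups (6 week smoke and 12 week smoke) breathed mainstream tobacco smoke (MTS) through the nose only, at 2 cigarettes daily 5 times weekly, and their sham groups (6 week sham and 12 week sham) were held in restrainers without smoke. In 4 further groups a break of 6 weeks without exposure followed (6 week smoke and 6 week break, 12 week smoke-6 week break, and their controls 6 week smoke-break sham and 12 week smoke-break sham). Each group had 5 arrays except 12 week smoke, with 4, giving 39 arrays of 39 separate mice. The labels place the sampling 3 hours after exposure for all 8 groups, including those after the break. The RNA came from the upper piece of the left lobe, so that more cells of a type and more RNA per cell cannot be told apart. Within each group the mice carry the names m1 to m5, which do not link animals of different groups.

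Depending on the array, 48.4% to 94.6% of gene probes were brighter in Cy5 than a threshold set from its negative controls. Markers of lung cell types were high: Sftpc, the surfactant protein C of alveolar type II cells, had a median log2 ratio of 3.92, and Scgb1a1, the secretoglobin of club cells, 3.03, and both were above the threshold on 39 of 39 arrays. By the sequence of the exposure-date labels the arrays fell into 5 runs. Run 1 had lower ratios of club cell markers, with a mean over 7 of them of 2.48 to 3.44 against 4.15 to 5.65 on the arrays of other runs. This did not hold for every list, since the mean over hepatocyte markers reached 3.17 in run 1, the highest of any run. Run 4 held no 6 week sham array and run 5 held 2 (m2 and m5) but no 12 week smoke array. In the label order 6 week sham m2 had place 5 of run 5, whereas every other 6 week sham array had place 2 of its run. Place 5 belonged to 12 week smoke in runs 1, 2 and 3, and in run 4 that group had place 4. Whether the label of m2 is right was not tested. The array labelled 6 week sham m2 stood apart from its group for both inducible members, Cyp1a1 and Cyp1b1, and the 6 week changes of their ratios are given with and without it. That array was singled out by these same values, so that results without it describe the other arrays and are no independent test.

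A window before an annotated transcript start of each gene is printed because the AhR acts through a short DNA motif that can be looked for there. Cyp1a1 lies on mouse chromosome 9 (GRCm38.p6, chr9:57687928-57703824) and Cyp1a2 beside it (chr9:57676937-57683655) on the opposite strand, with 4272 bases and 0 other genes between the gene models. Cyp1b1 lies on chromosome 17 (chr17:79706940-79715061). Each window holds the 250 bases before an annotated RefSeq start, at chr9:57697363-57697612 on the plus strand for Cyp1a1, at chr17:79715062-79715311 on the minus strand for Cyp1b1 and at chr9:57683656-57683905 on the minus strand for Cyp1a2. The windows of Cyp1b1 and Cyp1a2 border their gene models, whereas that of Cyp1a1, which has 2 annotated transcripts, lies inside its model, before a start downstream of the model's first base. They are written 5′ to 3′ on the strand of the gene, and capitals mark the core of the XRE (GCGTG, or CACGC where it lies on the other strand) and the TATA motif TATAAA.
Cyp1a1: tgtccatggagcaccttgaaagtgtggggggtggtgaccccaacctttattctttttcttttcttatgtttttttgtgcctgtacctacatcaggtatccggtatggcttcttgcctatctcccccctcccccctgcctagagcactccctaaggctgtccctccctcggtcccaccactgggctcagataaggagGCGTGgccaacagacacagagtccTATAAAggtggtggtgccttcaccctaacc
Cyp1b1: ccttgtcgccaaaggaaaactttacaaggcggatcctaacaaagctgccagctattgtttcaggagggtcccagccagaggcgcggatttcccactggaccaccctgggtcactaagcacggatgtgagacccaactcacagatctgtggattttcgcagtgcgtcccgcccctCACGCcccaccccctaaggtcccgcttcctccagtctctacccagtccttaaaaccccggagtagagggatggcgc
Cyp1a2: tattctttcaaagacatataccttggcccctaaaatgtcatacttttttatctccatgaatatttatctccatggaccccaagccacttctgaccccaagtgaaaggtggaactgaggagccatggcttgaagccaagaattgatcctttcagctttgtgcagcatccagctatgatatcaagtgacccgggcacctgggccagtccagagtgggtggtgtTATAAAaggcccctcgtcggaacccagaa
The XRE core was found 1 time before Cyp1a1, starting 54 bases upstream of the annotated start, and 1 time before Cyp1b1, 76 bases upstream and on the other strand. It was not found in the Cyp1a2 window. Of 32851 windows of the same length before annotated mouse transcripts, 9250 (28.2%) hold this core on either strand, so its presence is common, and the well-studied elements of Cyp1a1 lie farther upstream than this window reaches. TATAAA, searched on the strand of the gene, was present 30 bases before the start of Cyp1a1 and 29 bases before that of Cyp1a2 and was not found before Cyp1b1, against 2494 of all windows (7.59%). The Cyp1b1 window had a GC content of 58% and 12 CpG pairs, the Cyp1a1 window 53.6% and 3, and the Cyp1a2 window 47.2% and 3, beside medians of 52.4% and 6 over all windows. A match describes these letters and not a site in use.

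Cyp1a1 oxidises polycyclic aromatic hydrocarbons and is the textbook reporter of AhR activity. In the 6 week smoke group its log2 ratio was 5.07, 8.06, 7.65, 7.07 and 7.07 in mice m1 to m5, against 1.25, 6.46, 2.76, 2.81 and 2.05 in 6 week sham. In 12 week smoke it was 5.53, 7.36, 6.47 and 7.04, against 1.85, 1.66, 1.03, 2.46 and 2.07 in 12 week sham. At 12 weeks the groups did not overlap, and at 6 weeks the sham array m2 lay inside the range of the smoke arrays while the other 4 lay below all of them. After the break the ratios were 2.19, 0.97, 0.96, 1.42 and 1.93 in 6 week smoke and 6 week break, against 1.92, 2.05, 1.37, 0.83 and 1.10 in its break sham. In 12 week smoke-6 week break they were 1.86, 1.30, 0.85, 0.45 and 0.52, against 1.95, 0.86, 0.85, 1.15 and 1.60. These 4 groups overlapped one another, and none of their arrays reached the lowest smoke array at 5.07.

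As mean ± SD, Cyp1a1 stood at 6.99 ± 1.15 (n = 5) in 6 week smoke and 6.60 ± 0.80 (n = 4) in 12 week smoke. The sham groups had 3.06 ± 2.00 (n = 5; 2.22 ± 0.73 with n = 4 without m2) and 1.81 ± 0.53 (n = 5). The break groups lay between 0.99 and 1.49, with SDs of 0.48 to 0.59 (n = 5 each). Setting aside m2, the only array to overlap, the 9 smoke arrays had 5.07 to 8.06 and the 29 others 0.45 to 2.81.

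Cyp1b1, which also metabolises oestrogens and activates polycyclic hydrocarbons, had the same split of the arrays. Its log2 ratio was 1.61, 1.47, 1.57, 2.05 and 1.50 in 6 week smoke, against -1.74, 2.00, -1.38, -1.47 and -1.16 in 6 week sham. In 12 week smoke it was 1.97, 2.28, 1.63 and 2.32, against -0.49, -1.53, -1.15, -0.81 and -1.69 in 12 week sham. Thus all smoke arrays were above the reference RNA and all sham arrays except 6 week sham m2 below it. After the break the ratio was -1.41, -1.62, -1.59, -1.48 and -0.63 in 6 week smoke and 6 week break, against -1.47, -1.57, -1.54, -1.47 and -0.71 in the break sham. In 12 week smoke-6 week break it was -1.18, -0.28, -1.13, -1.54 and -1.16, against -0.68, -1.68, -1.28, -1.62 and -1.42. No array after the break was above 0.

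The mean of Cyp1b1 was 1.64 ± 0.24 (SD, n = 5) in 6 week smoke and 2.05 ± 0.32 (n = 4) in 12 week smoke. In 6 week sham it was -0.75 ± 1.55 (n = 5), which became -1.44 ± 0.24 (n = 4) without m2, and in 12 week sham -1.13 ± 0.50 (n = 5). The 4 groups after the break had means of -1.35 to -1.06. Without m2, 1.47 to 2.32 on the 9 smoke arrays stood against -1.74 to -0.28 on the 29 others.

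The array labelled 6 week sham m2 carried 6.46 for Cyp1a1 and 2.00 for Cyp1b1, both within the range of the 9 smoke arrays. The other genes of the receptor's programme were also high on it. Its mean over 6 further AhR-responsive enzymes was 1.31, second of 39 arrays, and its mean over 7 genes of the receptor, its partners and its feedback regulators was 0.50, also second. Cyp1a2, by contrast, had 0.21 there, inside the range of the other arrays. The mean over 8 macrophage markers was at most 0.67 in 6 week sham, m2 included. The lowest such mean was 0.77 in 6 week smoke and 0.80 in 12 week smoke.

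**Figure D1:**
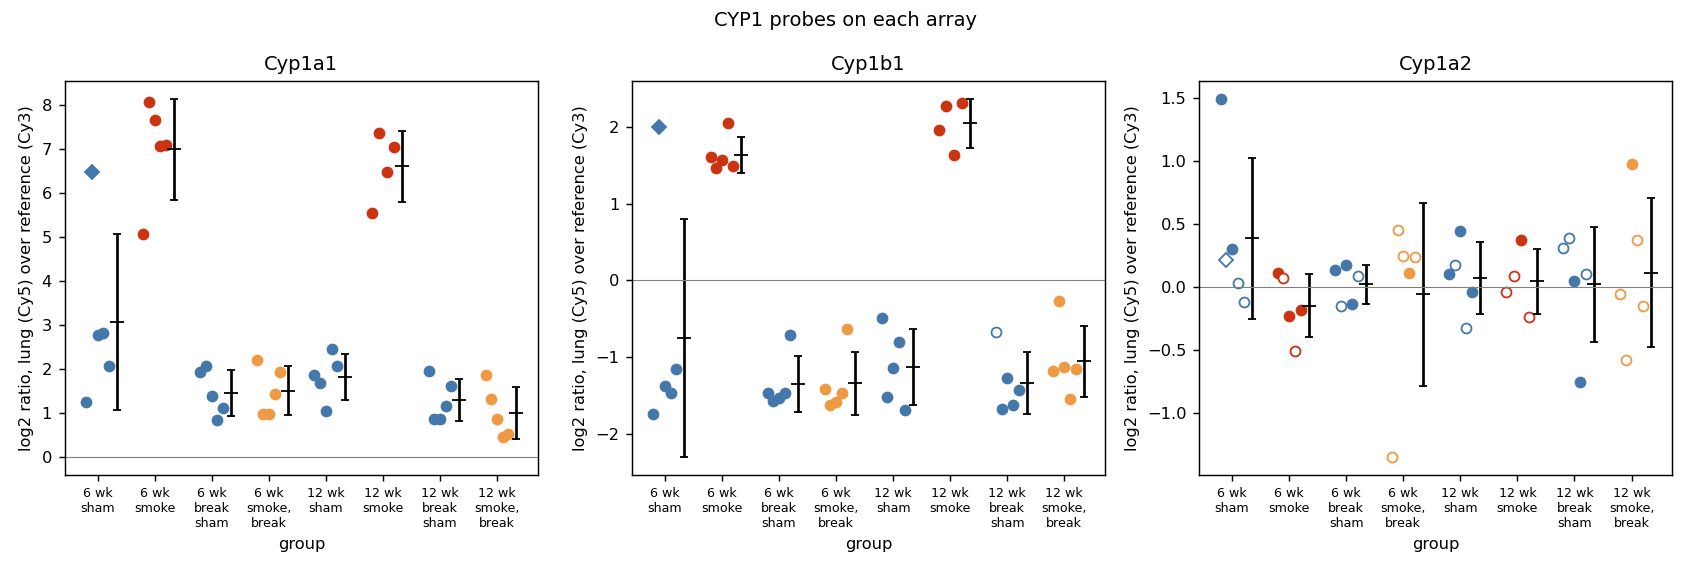
Log2 ratio of lung (Cy5) over reference (Cy3) for the 3 CYP1 probes on each array, by group, with m1 first; filled symbols were above the array's Cy5 threshold and hollow ones were not, the diamond is 6 week sham m2, and the bar beside each group is the mean ± SD. For Cyp1a1 the 9 smoke arrays (red) sit at 5.07 to 8.06 and for Cyp1b1 at 1.47 to 2.32, above every other array except the diamond, while Cyp1a2 scatters around 0 in all groups.

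The ratios stood on signals of unequal strength. The Cyp1a1 spot was above the Cy5 threshold on 39 of 39 arrays, with a median net Cy5 signal of 56630 (29376 to 65215) on the 9 smoke arrays and of 294 (119 to 1110) on the 29 others without m2. On 6 week sham m2 the raw Cy5 signal, background included, was 42330.5. On 3 smoke arrays (6 week smoke m1 and 12 week smoke m1 and m2) the spot was at the scanner limit of 65535, so its true signal there has only a lower bound. The reference side was weak. The Cyp1a1 spot exceeded the Cy3 threshold on 9 of 9 smoke arrays and on 0 of the 29 others, with median net Cy3 signals of 239.5 (108 to 1456) and 44.5 (18 to 564).

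The same reference RNA was on every array, yet the Cy3 signal of the Cyp1a1 spot was higher on the 12 week smoke arrays than on the 12 week sham arrays. In a fit of the Cy3 channel alone this difference was 1.79 on the log2 scale (SE 0.32, adjusted p = 0.0299), or 3.46-fold, and 2 of 17560 probes (0.0114%) were called, the other being Elavl1 with 1.28. For 6 weeks the Cy3 difference was 1.14 (SE 0.30, adjusted p = 0.990) and was not called, in a fit that included 6 week sham m2. The spot was above the Cy3 threshold on 5 of 5 arrays of 6 week smoke and 1 of 5 of 6 week sham, namely m2. Its median net Cy3 signal was 303 in 6 week smoke, against 84.5 in 6 week sham and 62.75 without m2. On the smoke arrays the Cy3 signal amounted to 0.195% to 2.23% of the Cy5 signal of the same spot. The largest shares were on the run 1 arrays 6 week smoke m1 (2.23%) and 12 week smoke m1 (2.03%), whose Cyp1a1 ratios were the lowest of the smoke groups. On both arrays the spot was at the scanner limit in Cy5, so that its share can be too high and its ratio too low. Whether the bright lung signal contributed to the Cy3 reading was not tested. Run 1 arrays also had higher Cy3 thresholds (405 to 1842) than the arrays of other runs (at most 333). In 6 week smoke-break sham the net Cy3 signal reached 564, where the net Cy5 signal was at most 963. The part of the run was not tested. With the lung channel alone the Cyp1a1 differences were larger than with the ratio, as stated with the tests below.

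Cyp1b1 had signal in both channels. It exceeded the Cy3 threshold on 9 of 9 smoke arrays and 28 of the 29 others, and its median net Cy5 signal was 6233 (3018 to 14292) against 378 (98 to 1864). Its Cy3 differences between smoke and sham were 0.43 and 0.53 on the log2 scale at 6 and 12 weeks and were not called. No Cyp1b1 spot was at the scanner limit.

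**Figure D2:**
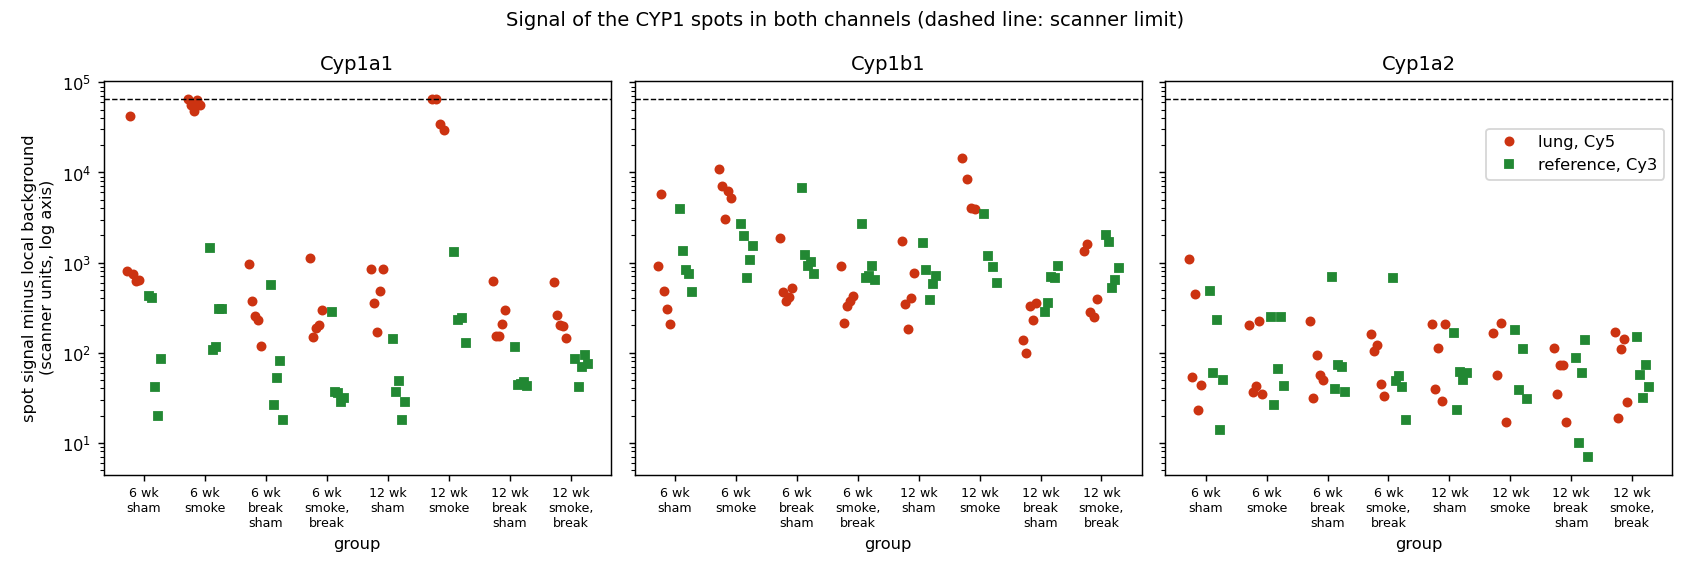
Net signal (spot median minus local background, log axis) of each CYP1 spot in the lung channel (Cy5, red circles) and the reference channel (Cy3, green squares) on every array, by group; the dashed line is the scanner limit of 65535. The lung signal of Cyp1a1 is near the limit on the smoke arrays and its reference signal is low on all arrays, Cyp1b1 is well measured in both channels, and Cyp1a2 is low in both, with the lung signal above the threshold on 4 of 9 smoke arrays and 12 of 30 others.

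The first comparison asked how the genes responded to repeated smoke, against sham mice of the same duration. Cyp1a1 rose 15.5-fold after 6 weeks (95% interval 6.65 to 36.1; log2 3.95, SE 0.60, adjusted p = 0.00104) and 29.5-fold after 12 weeks (12.1 to 72.0; log2 4.88, SE 0.63, adjusted p = 2.7e-05). Cyp1b1 rose 5.72-fold (3.34 to 9.80; log2 2.52, SE 0.38, adjusted p = 0.00104) and 9.99-fold (5.67 to 17.6; log2 3.32, SE 0.40, adjusted p = 1.14e-05). Both members in this limma fit were thus called at each duration, where 11 of 17560 probes (0.0626%) were called at 6 weeks and 76 (0.433%) at 12 weeks. Cyp1a2 did not enter this fit and is given apart below. The intervals cover the spread between arrays and not the limits of the Cyp1a1 spot, which was saturated on 1 of 5 arrays of 6 week smoke and 2 of 4 of 12 week smoke and had a Cy3 signal under the threshold on every sham array except 6 week sham m2, so that its folds are estimates on the ratio scale and not sizes of the change in transcript. By size of fitted change Cyp1a1 was first and Cyp1b1 second of all probes at both durations.

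Several of these sizes depended on how the arrays were read. Without 6 week sham m2 the 6 week changes were 26.2-fold for Cyp1a1 and 8.53-fold for Cyp1b1. With the lung channel alone Cyp1a1 changed by 5.19 on the log2 scale at 6 weeks and by 6.80 at 12 weeks. With the spots at the scanner limit left out the Cyp1a1 changes were 22.5-fold and 37.2-fold. When only the 2 groups of the comparison entered the fit, m2 included, neither 6 week change was called (adjusted p = 0.940 for both), while both 12 week changes were.

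Inside runs, where smoke and sham arrays shared the label run, the difference in Cyp1a1 was 3.82, 4.32, 4.85 and 2.81 for the 4 runs with both 6 week groups. The last of these became 5.02 without m2. At 12 weeks it was 3.68, 5.44, 4.98 and 5.69. Cyp1b1 gave 3.35, 2.88, 3.04 and 1.63 (3.21 without m2) at 6 weeks and 2.45, 2.78, 4.01 and 3.80 at 12 weeks. Every run that held both groups thus had the higher value in smoke.

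**Figure D3:**
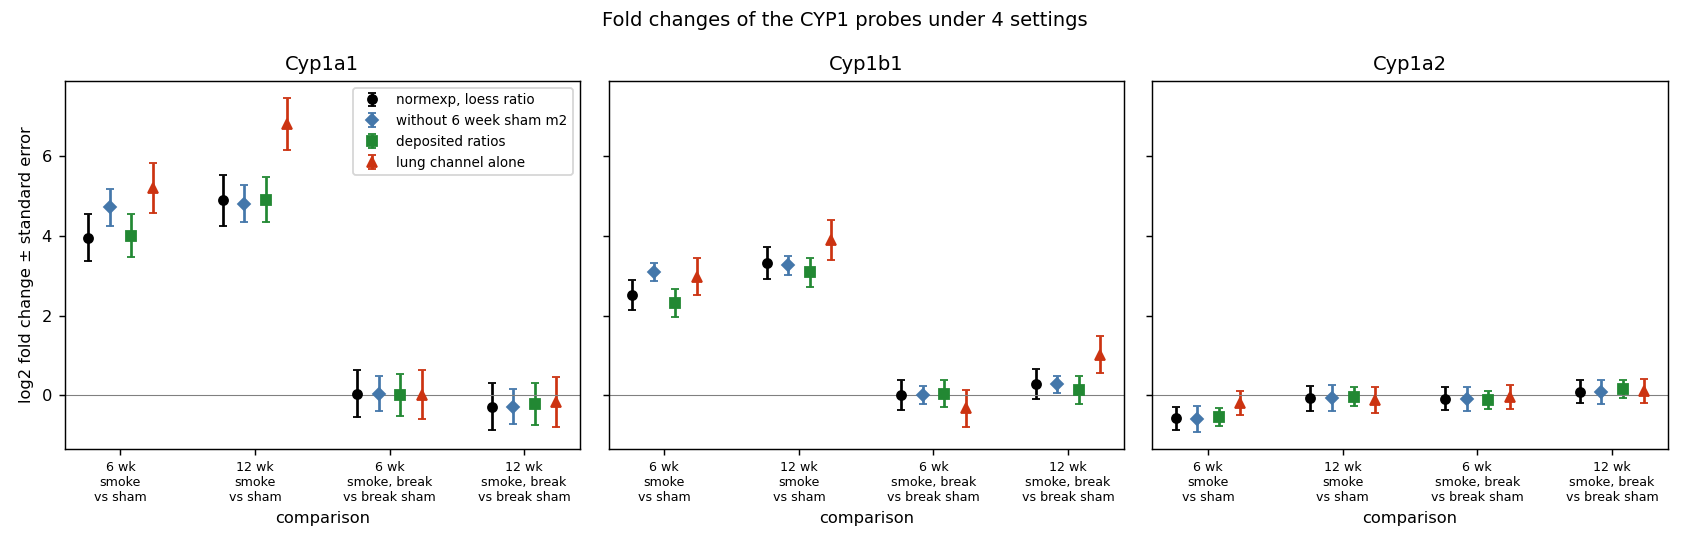
Log2 fold change ± standard error of the 3 CYP1 probes in 4 comparisons (smoke against sham and, after the break, smoke against break sham) under 4 readings of the arrays: the normexp and loess ratio, the same without 6 week sham m2, the deposited ratios, and the lung channel alone. For Cyp1a1 the lung channel alone gives 5.19 and 6.80 against 3.95 and 4.88 with the ratio, and after the break the ratio gives 0.04 and -0.29.

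The effect of duration was examined as the difference between the 2 smoke effects. It was 0.93 for Cyp1a1 (95% interval -0.83 to 2.69) and 0.80 for Cyp1b1 (-0.31 to 1.92) on the log2 scale, both with an adjusted p of 0.971. Without m2 the differences were 0.09 and 0.17. An equal response was not shown, since the interval for Cyp1a1 reaches from a 0.563-fold to a 6.44-fold ratio of the effects.

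After the break the smoke groups were set against their break shams. Cyp1a1 differed by 0.04 on the log2 scale after 6 weeks of smoke (95% interval -1.16 to 1.24, adjusted p = 0.999) and by -0.29 after 12 weeks (-1.49 to 0.92, adjusted p = 0.965). Cyp1b1 differed by 0.0067 (-0.76 to 0.77, adjusted p = 0.999) and 0.28 (-0.49 to 1.04, adjusted p = 0.930). None of the members was called, nor was any of the 17560 probes (0%), with 758 and 1129 probes at an unadjusted p under 0.05. The upper bounds correspond to 2.37-fold and 1.89-fold for Cyp1a1 and 1.71-fold and 2.06-fold for Cyp1b1, all below the lower bounds of the corresponding smoke effects without a break. The Cy3 signal of Cyp1a1 was under its threshold on every array after the break. Its bounds are thus on the ratio scale and do not bound the change of the transcript. Within runs the differences of Cyp1a1 went both ways, from -1.08 to 0.84 and from -1.07 to 0.44.

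The smoke effect without a break minus that after it was tested in the same model. For 12 weeks this difference was 5.17 on the log2 scale for Cyp1a1 (95% interval 3.41 to 6.93, adjusted p = 0.00474) and 3.04 for Cyp1b1 (1.92 to 4.16, adjusted p = 0.00828), where 12 of 17560 probes (0.0683%) were called. With spot means in place of medians neither was called (adjusted p = 0.0857 for both), and with the lung channel alone Cyp1b1 was not (adjusted p = 0.205). For 6 weeks it was 3.91 (2.20 to 5.63) and 2.51 (1.42 to 3.60), with an adjusted p of 0.258 for both and 0 probes (0%) called. Without 6 week sham m2 it was 4.67 (adjusted p = 0.000134) and 3.09 (adjusted p = 1.82e-06). These calls follow the removal of an array chosen by its values of the same genes, and are not independent support.

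Ordered by their fitted means, the groups ran for Cyp1a1 from 6 week smoke and 12 week smoke to 6 week sham, 12 week sham, 6 week smoke and 6 week break, 6 week smoke-break sham, 12 week smoke-break sham and 12 week smoke-6 week break. For Cyp1b1 the 2 smoke groups were again at the top, with 12 week smoke first. The only step between neighbours that was called was the one below the smoke groups, which was 3.67 for Cyp1a1 (adjusted p = 0.00747) and 2.52 for Cyp1b1 (adjusted p = 0.00104). The next step of Cyp1a1, from 6 week sham to 12 week sham, was 1.22 (SE 0.60, adjusted p = 0.730), and Cyp1b1 differed by 0.55 between the smoke groups (SE 0.40, adjusted p = 0.929). Without 6 week sham m2 the order of Cyp1a1 was the same, with 4.34 below the smoke groups (adjusted p = 2.17e-06) and 0.46 from 6 week sham to 12 week sham (SE 0.47). For Cyp1b1 6 week sham then moved from place 3 to place 8, and the step below the smoke groups was 2.70 (adjusted p = 1.3e-09). Of the 28 pairs of groups, all 12 that joined a smoke group with another were called for both genes, with 3.67 to 5.99 for Cyp1a1 and 2.52 to 3.54 for Cyp1b1, in comparisons where 0.0626% to 2.31% of probes were called. None of the remaining 16 was called for either gene. Their largest difference in Cyp1a1 was 2.04 (lowest adjusted p = 0.101), and in Cyp1b1 0.55 (lowest adjusted p = 0.653). Without m2 the same 12 pairs were called and none of the 16, whose largest differences were 1.28 and 0.49.

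No difference in Cyp1a2 was called in any comparison. Its lung signal exceeded the threshold on 4 of 9 smoke arrays and 12 of 30 others, in too few arrays of any group to enter the filtered fit, so its tests come from a fit over all 20868 probes. The median net Cy5 signal was 57 on the smoke arrays and 72.5 on the others. In 6 week smoke its log2 ratio was 0.11, 0.07, -0.23, -0.51 and -0.18, against 1.49, 0.21, 0.31, 0.03 and -0.12 in 6 week sham, and in 12 week smoke it was -0.04, 0.09, 0.37 and -0.24. These values overlapped those of every other group. The difference between smoke and sham was -0.58 at 6 weeks (95% interval -1.19 to 0.03, adjusted p = 0.680) and -0.07 at 12 weeks (-0.71 to 0.58, adjusted p = 0.983), and after the break it was -0.08 and 0.09. Within runs the difference between smoke and sham was -1.38 to -0.26 at 6 weeks, the -1.38 being that of run 1 with 6 week sham m1. At 12 weeks it was -0.20 to -0.07, and after the break the differences went both ways. How many of all probes keep 1 sign in every run was not counted. Near the background a ratio is drawn towards 0, so that these intervals do not bound the change of the transcript.

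The highest Cyp1a2 values came with liver transcripts. Among 39 arrays, 6 week sham m1 had the highest Cyp1a2 ratio (1.49) and the highest mean over 7 hepatocyte markers such as Alb, which encodes albumin (3.17). The array 12 week smoke-6 week break m3 was second in both (0.98 and 2.86), whereas 6 week smoke-break sham m4, next in the liver mean (2.71), had -0.14. Without 6 week sham m1 the 6 week difference in Cyp1a2 was -0.26 (adjusted p = 0.966). The part of liver RNA in these values was not tested.

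Members were also compared array by array, after removing group and run, in 9 relations. Residuals left by such a fit are not fully exchangeable, so the permutation p-values are approximate. Over the 9 smoke arrays the residuals of Cyp1a1 and Cyp1b1 had a Pearson r of 0.39 (permutation p = 0.296, adjusted 0.444) and a Spearman rho of 0.48 (permutation p = 0.194, adjusted 0.349), with r at 0.46 without the 2 arrays farthest from the median. Over the 30 other arrays r was 0.74 (permutation p = 0.00022, adjusted 0.00198) and rho 0.43 (permutation p = 0.0196, adjusted 0.0882), with r at 0.40 without the 2 farthest arrays. Without 6 week sham m2, r was 0.26 (permutation p = 0.182, adjusted 0.408) and rho 0.25 (permutation p = 0.191, adjusted 0.349), so the relation among unexposed and break mice rests on that array. Of the relations with Cyp1a2, the one of Cyp1a1 over the same 29 arrays was strongest, at r = -0.46 (permutation p = 0.0128, adjusted 0.0578) and rho = -0.45 (permutation p = 0.0165, adjusted 0.0882), and failed the correction.

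Around the CYP1 genes, the receptor and its regulators were read from a list of 9 genes, of which 7 had a tested probe. At 6 weeks 0 of these 7 were called and at 12 weeks 2 rose, with median log2 changes of 0.07 and 0.35 beside medians of 0.01 and 0.01 over all probes. Of all tested probes 0.0569% were called as higher at 6 weeks and 0.376% at 12 weeks. Ahrr, the repressor that competes with AhR for Arnt, rose 4.71-fold at 12 weeks (log2 2.24, adjusted p = 0.00145) and had 1.06 at 6 weeks (adjusted p = 0.365), where leaving out 6 week sham m2 gave 1.56 and a call (adjusted p = 0.00163). Tiparp, an ADP-ribosylase that restrains AhR, rose by 0.50 at 12 weeks (adjusted p = 0.0230). The Tiparp call was lost when any one of 12 week smoke m1, m2 or m4 or 12 week sham m1 or m2 was left out (0.43 to 0.50, adjusted p = 0.0817 to 0.124), and also with median centring, spot means, the lung channel alone, no run block or a fit of the 2 groups alone (0.38 to 0.53, adjusted p = 0.0657 to 0.741). Ahr itself had 0.27 and 0.35 and its partner Arnt -0.10 and 0.35, none of them called. The Ahrr ratio was 1.24 to 2.28 in 12 week smoke and -1.31 to 0.21 in 12 week sham.

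Among other AhR-responsive enzymes, 6 of 10 listed genes were measured, of which 2 rose at 6 weeks and 3 at 12 weeks (medians 0.22 and 0.75). The shares of all tested probes called as higher were 0.0569% and 0.376%. Aldh3a1, an aldehyde dehydrogenase, rose by 1.57 (adjusted p = 0.00013) and 1.85 (adjusted p = 6.07e-06) on the log2 scale at 6 and 12 weeks. Nqo1, a quinone reductase that is also a target of the oxidant-responsive factor Nrf2, rose by 1.18 (adjusted p = 0.00301) and 1.96 (adjusted p = 2.03e-06). Without 6 week sham m2 the 6 week changes were 1.83 for Aldh3a1 (adjusted p = 4.9e-09) and 1.46 for Nqo1 (adjusted p = 1.37e-08). Gsta1, a glutathione S-transferase, rose by 1.15 at 12 weeks (adjusted p = 0.000995) and had 0.34 at 6 weeks. The 6 week call of Nqo1 was lost without the run as a block (1.05, adjusted p = 0.125), with the lung channel alone (1.05, adjusted p = 0.128) and, as was that of Aldh3a1, in a fit of the 2 groups alone (adjusted p = 0.940 for both). Ugt1a6b, Xdh and Cyp2s1 had -0.04 to 0.34 and were not called. The same kind of fit at 12 weeks kept Nqo1 and Aldh3a1 and lost Ahrr (2.23, adjusted p = 0.225) and Gsta1 (1.13, adjusted p = 0.0510). After the break no gene of either list was called. For 12 weeks, the loss of the smoke effect over the break was also called for Nqo1 (1.97, adjusted p = 0.00151) and Aldh3a1 (1.72, adjusted p = 0.00474).

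**Figure D4:**
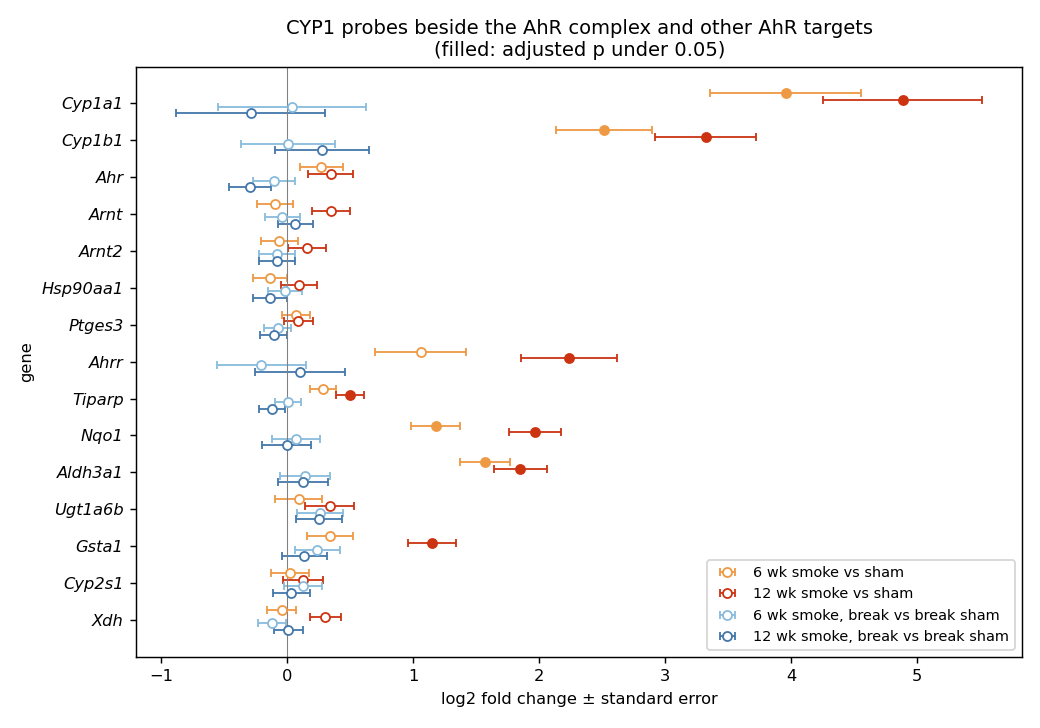
Log2 fold change ± standard error of Cyp1a1 and Cyp1b1 beside 7 genes of the AhR complex and its feedback and 6 other AhR-responsive enzymes, for smoke against sham (orange 6 weeks, red 12 weeks) and after the break (blue); filled points have an adjusted p under 0.05. Cyp1a1 and Cyp1b1 lie farthest to the right in both smoke comparisons, Ahrr, Nqo1 and Aldh3a1 follow, and every blue point lies between -0.29 and 0.28.

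Genes that work with P450 enzymes were read from 3 lists, in comparisons where 0.0626% (6 weeks) and 0.433% (12 weeks) of all probes were called, so that a count of 0 in such short lists is near the background and does not set them apart. None of 4 measured electron donors and partners was called, the farthest being Cyb5a, cytochrome b5, with 0.08 and 0.29. Of 7 enzymes of heme synthesis 0 were called, with 0.14 and 0.32 for Cpox and -0.12 and -0.18 for Alad. Of 8 enzymes that act on oxidation products of P450s 0 were called, with 0.34 and 0.45 for the glutathione S-transferase Gstm1 and -0.31 and 0.42 for the epoxide hydrolase Ephx2. Of 70 P450 genes outside the family 60 were tested and 0 were called at either duration, their medians being -0.18 and -0.0029. The widest of their changes were those of Cyp3a25 (-0.98 at 6 weeks, adjusted p = 0.602), Cyp2j5 (-0.89) and Cyp2j9 (-0.82 at 12 weeks). The mean over the 60 was 0.77 to 2.00 in 6 week sham (median 0.96), against 0.86 to 1.12 in 6 week smoke. That sham group also held the array with the highest mean of hepatocyte markers, and the part of liver RNA in these changes was not tested.

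Markers of lung cell types were read beside the members. Macrophage markers had positive changes for 8 of 8 genes at 6 weeks and 7 of 8 at 12 weeks, with medians of 0.47 and 0.59 and 0 called. Over all tested probes the medians were 0.01 and 0.01, and 0.0626% and 0.433% were called. The mean of the 8 was 0.77 to 1.24 on the 6 week smoke arrays and 0.27 to 0.67 in 6 week sham. At 12 weeks it was 0.80 to 1.11 against 0.39 to 0.57. How many other gene lists part the groups in this way was not counted. After the break the 4 groups overlapped, at 0.48 to 1.02. They reached into the range of the smoke arrays, up to 1.00 in 12 week smoke-break sham, whose mice had no smoke. Of 9 fibroblast and pericyte markers 2 fell at 12 weeks, Col3a1 by 0.80 (adjusted p = 0.0275) and Pdgfrb by 0.61 (adjusted p = 0.0266) on the log2 scale. Of all tested probes 0.0569% were called as lower at 12 weeks. The Col3a1 call was lost without any one of 12 week smoke m1, m2 or m3 or 12 week sham m1, m2, m3 or m5 (-0.83 to -0.70, adjusted p = 0.0519 to 0.135), and the Pdgfrb call without any one of 12 week smoke m2, m3 or m4 or 12 week sham m1, m2, m4 or m5 (-0.62 to -0.55, adjusted p = 0.0706 to 0.166). Both were also lost with the lung channel alone, without the run block and in a fit of the 2 groups alone (adjusted p = 0.0931 to 0.429). None of the club, alveolar type II and I, endothelial, smooth muscle, ciliated or hepatocyte markers was called, and their list medians lay between -0.24 and 0.28. The part of cell composition in the CYP1 values was not tested.

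The genes whose 8 group means were most like those of the members were named as a description. For Cyp1a1 these were Gclm (Pearson r = 0.994), Txnrd1 (0.992), Zfp281 (0.991), Slc6a9 (0.988) and Osmr (0.987). Without m2 Nhlrc2 was first (0.998) and Gclm second. For Cyp1b1 they were Cbr3 (0.994), Aldh3a1, Npc2 and Txnrd1 (0.986 each) and Adh7 (0.985), and without m2 Cbr3 was again first (0.994), with Ahrr second (0.989). Cyp1b1 held place 12 in likeness to Cyp1a1 (0.973), with sizes of change not entering this measure. The group means share arrays, reference and runs. With both smoke groups far above the others, such an r is high for many probes that smoke shifted upwards by any size. Zfp281, for instance, changed by only 0.30 and 0.31 at 6 and 12 weeks.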

How the data were processed

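The authors scanned Agilent 4121A arrays with ScanArray Express and quantified them with ImaGene 5.5. The deposited scanner files hold the median intensity of each spot and of its local background per dye, not normalized. Also deposited are log2 ratios of sample to reference, which the authors normalized by LOWESS in MAANOVA and which were used as an alternative. The study hybridised 40 arrays and set 1 aside as an outlier, and 39 were analysed.

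Spot medians were corrected for background by normexp with an offset of 50 and normalized by loess inside each array, control spots having weight 0. Averaging the spots of a probe then gave 1 log2 ratio per probe and array, which correlated with the deposited values at 0.975 to 0.996. Probes entered the fit if 4 or more arrays of some group had Cy5 above threshold, which was set per array at 3 trimmed SDs over the trimmed mean (5% trimmed) of its negative controls. This left 17560 of 20868 probes, Cyp1a1 and Cyp1b1 among them.

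All arrays entered 1 limma model (limma 3.58.1 in R 4.3.3, with version 1.17.8 of data.table and python 3.11.15) of the 8 groups with the 5 label runs as a fixed block, and p-values were adjusted by Benjamini-Hochberg over the kept probes with 0.05 as the threshold. The study blocked on hybridization and exposure dates. Label runs were read from the order of the exposure-date labels, and may differ from that block. The number of arrays limits the precision.

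Named genes were the 3 members; of each pathway list, up to 4 genes with the largest change and any that passed; of the marker lists, the brightest and any that passed; of other P450 genes, 3 with the largest change; and the 5 genes most alike in pattern. Members, lists and rules were chosen with earlier results of these data known. Leaving out 6 week sham m2 or the spots at the scanner limit was added after seeing the data. Promoter windows, coordinates and symbols came from RefSeq (GRCm38.p6), where 3 of 3 members matched.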

Additional observations from a re-analysis of the deposited data

Results flagged for a closer look

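In 24 sets of member values (3 probes in 8 groups), 6 held an array that stood far from the rest of its group by Dixon's criterion, where chance gives about 1 in 20. For Cyp1b1 these were 6 week sham m2 with a log2 ratio of 2.00, 6 week smoke m4 with 2.05, 6 week smoke-break sham m5 with -0.71, and 6 week smoke and 6 week break m5 with -0.63. All 4 are arrays of run 5 and all are the highest of their group. For Cyp1a2 they were 6 week sham m1 with 1.49 and 6 week smoke and 6 week break m1 with -1.35, both arrays of run 1.

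The 12 week smoke effect differed from the effect of smoke after the break for Cyp1a1, by 5.17 on the log2 scale, and for Cyp1b1, by 3.04, each by a test of the difference itself in the limma model.

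In the reference channel taken alone, which the ratios use only as their denominator, the Cyp1a1 spot was brighter in 12 week smoke than in 12 week sham by 1.79 on the log2 scale, although the same reference RNA was hybridised to all arrays.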

How the results depend on the processing

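Over 22 readings of the data the smoke effect on Cyp1a1 was 3.49 to 5.19 on the log2 scale at 6 weeks, called in 21, and 4.49 to 6.80 at 12 weeks, called in 22. That on Cyp1b1 was 2.26 to 3.09, called in 21, and 3.08 to 3.89, called in 22. The exception at 6 weeks was the fit with only the groups of the comparison (3.86 and 2.64, adjusted p = 0.940 for both). The difference between the 12 week smoke effect and the effect after the break was 4.28 for Cyp1a1 and 2.56 for Cyp1b1 with spot means, neither called, and 2.88 for Cyp1b1 with the lung channel alone, not called. The 6 week counterpart became a call for Cyp1a1 with the lung channel alone (5.17, adjusted p = 0.0273) and for both with array weights (4.51 and 2.70). After the break the sign of the small differences turned. For Cyp1a1 after 6 weeks it was -0.0089 without background correction and -0.23 with array weights, and after 12 weeks 0.21 with spot means. For Cyp1b1 after 6 weeks it was -0.017 with an offset of 16, -0.060 with median centring, -0.011 with spot means, -0.33 with the lung channel alone and -0.034 with array weights. For Cyp1a2 median centring gave 0.0048 at 12 weeks, 0.059 and -0.028 after the break and 0.033 for the 12 week difference of effects, and array weights gave 0.088 after 6 weeks and break. The causes were not tested.

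Leaving out 1 array at a time gave Cyp1a1 3.49 to 4.71 at 6 weeks, 4.71 to 5.23 at 12 weeks, -0.23 to 0.26 and -0.61 to -0.02 after the break, 0.09 to 1.36 for the difference between durations, and 3.45 to 4.67 and 4.91 to 5.51 for the smoke effect minus the effect after the break. For Cyp1b1 these ranges were 2.26 to 3.09, 3.19 to 3.52, -0.037 to 0.065, 0.03 to 0.47, 0.17 to 1.05, 2.25 to 3.09 and 2.85 to 3.30. For Cyp1a2 the ranges that crossed 0 were -0.16 to 0.00035 at 12 weeks, -0.22 to 0.30 and -0.17 to 0.31 after the break and -0.39 to 0.092 for the 12 week difference of effects.

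The 11 probes called at 6 weeks became 26 with median centring, 4 with the lung channel alone, 22 with array weights, 0 with only the groups of the comparison and 7 at an adjusted p of 0.01. The 76 called at 12 weeks became 41 with the lung channel alone, 46 without the run block, 203 with array weights, 11 with only the groups of the comparison and 41 at 0.01. After 6 weeks and break the count of 0 became 1 without background correction, 1 with the deposited ratios and 5 with array weights. For the difference between durations it became 1 without background correction, 1 with probes above the threshold on at least 20 arrays and 1 with array weights. For the 6 week effect minus that after the break, 0 became 1 with the lung channel alone and 8 with array weights, and for 12 weeks 12 became 7 with spot means, 33 with array weights and 28 with only the groups compared. Leaving out 1 array gave 7 to 33 probes at 6 weeks (33 without 6 week sham m2), 44 to 91 at 12 weeks, 0 to 2 after 6 weeks and break, 0 to 1 between durations, and 0 to 12 and 10 to 27 for the 2 differences of effects. No paired analysis was possible because the replicate numbers follow accession order and pair no mice. The label runs were a block in the model instead, and the differences inside each run are given with the results.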
